A study of Homo sapiens with 8 samples.

Results

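Aminoacyl-tRNA synthetases are the enzymes that join each amino acid to its tRNA. Their mRNAs were picked out by gene symbol: a letter for the amino acid followed by ARS, with or without a final 1 or 2, plus EPRS1 and the pair FARSA and FARSB. This gave 37 genes of the 57978 measured in both media. Of these, 20 have symbols that do not end in 2 and are called the cytosolic set here, and 17 have symbols that end in 2 and are called the mitochondrial set. The rule reads gene symbols and no measured value, although it was set with earlier results of these data known. The cells were HEK293T, a line from human embryonic kidney with the SV40 large T antigen, and every group expressed eIF3d-TEV, a form of eIF3d (a subunit of translation initiation factor eIF3) that bears an HA tag and can be cut by TEV protease. Cells spent 48 h either in complete medium, which was DMEM with 10% FBS, or in glucose-free DMEM with dialyzed FBS at the same percentage. RNA and protein were crosslinked with light of 254 nm, and the IP was made by pulling eIF3d down on beads with an anti-HA antibody and cutting it off the remaining eIF3 with the protease. The input and the IP of each medium were sequenced from polyadenylated RNA, with 2 libraries in each of the 4 groups. Replicates carry numbers, but nothing states that they were separate cultures, so p-values measure only the spread between libraries, which may be technical. An IP from untagged cells was not analysed here, and the labels do not say whether the cells also keep an eIF3d without the tag.

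A synthetase recognises its tRNA and its amino acid, activates the amino acid with ATP and transfers it to the tRNA, and the charged tRNA then feeds the ribosome. The enzymes fall into a pair of structural families, class I and class II. Most amino acids have separate genes for the enzyme of the cytosol and the enzyme that is made in the cytosol and imported into mitochondria. GARS1 (glycine) and KARS1 (lysine) serve both places from a single gene. EPRS1 joins the glutamate and proline enzymes in a single protein, and FARSA and FARSB encode the subunits of the cytosolic phenylalanine enzyme. Mitochondria have no glutamine enzyme of their own: they charge that tRNA with glutamate and convert it, with QRSL1, GATB and a further subunit as the converting complex. Several cytosolic synthetases sit together in the multisynthetase complex, held by the scaffold proteins AIMP1, AIMP2 and EEF1E1. Many cytosolic synthetase genes are known targets of ATF4, the transcription factor of the amino acid response, which binds a composite CCAAT/enhancer-binding protein and ATF element. eIF3d is the eIF3 subunit that can bind the mRNA cap itself.

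Promoter sequence, credited to RefSeq on GRCh38.p14, was found for 30 of the 37 genes. It is shown for the genes that hold a match to the amino acid response element, because the input comparison below concerns the abundance of these mRNAs, and for the start region shared by HARS1 and HARS2, because this is where the cytosolic and mitochondrial sets meet in the genome. The element was searched as TGATGNAA on both strands in the 250 bases before each start. It was present for 3 of the 30 genes, and in 3.19% of 27305 promoters. Capitals mark the match, and each sequence runs 5′ to 3′ on the strand of its gene.
AARS1, chr16:70289675-70289704, minus strand: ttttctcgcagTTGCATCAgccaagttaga
YARS2, chr12:32756076-32756105, minus strand: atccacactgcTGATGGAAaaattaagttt
IARS1, chr9:92293698-92293727, minus strand: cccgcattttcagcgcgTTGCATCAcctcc
In AARS1 and IARS1 the match lies on the opposite strand and so reads TTGCATCA. Counted from the transcription start, it ends at base -180 in AARS1, -190 in YARS2 and -6 in IARS1. A match is a run of letters and not a measured binding site.

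HARS1 and HARS2, the cytosolic and mitochondrial histidine genes, point away from each other on chromosome 5, with starts at base 140691370 on the minus strand and base 140691455 on the plus strand, 85 bases apart. The whole stretch between them is shown on the plus strand, with capitals at matches to ACTTCCGG, an ETS-type element, on either strand.
HARS1 to HARS2, chr5:140691371-140691454, plus strand: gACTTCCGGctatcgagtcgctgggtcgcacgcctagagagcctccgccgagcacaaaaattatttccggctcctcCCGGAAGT
The stretch holds 1 match beside each start. ACTTCCGG was present before the start of 7 of the 30 genes with promoter sequence, and in 3.64% of the 27305 promoters. Those genes were HARS1, HARS2, EARS2, CARS1, NARS1, WARS1 and PARS2, with HARS1 and HARS2 sharing theirs.

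The deposited unit was RPKM, which corrects reads for exon length and library size, in 1 table per medium. The libraries held 8656921 to 43400904 reads, as recovered from the low values, and replicates correlated across genes with r from 0.8997 in the complete IPs to 0.9939 in the glucose-free inputs. Mitochondrial rRNA took 26.8% to 50.7% of reads in the inputs and 0.401% to 10.7% in the IPs, with 10.7% in complete IP replicate 2 and 1.27% in replicate 1. The 37 synthetases took 0.0712% to 0.129% of reads in the inputs and 0.194% to 0.271% in the IPs. Because of this difference in make-up, RPKM was scaled to a common library median over the 10100 genes that averaged 1 RPKM or more. All changes below are relative to that median. The median log2 shift that the scaling removed was 1.68 between complete IP and input, 2.81 between glucose-free IP and input, 1.12 for the difference of these ratios, and -0.77 between inputs. Each of 5 HEK293T markers was above 0 in every library. At 1 RPKM or above were 1 or 2 of the 5 in the inputs and 4 or 5 in the IPs. Of 18 markers of other cell types no library had more than 3 at 1 RPKM or above. Among these was the erythroid gene HBA1, at 10 RPKM in complete input replicate 1, where the top HEK293T marker, NEFM, had 3.2.

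The cytosolic set had the higher levels at its median. On the length-corrected scaled RPKM scale, the median over its genes was 9.26 in the complete inputs and 12.4 in the glucose-free inputs, against 3.31 and 2.96 for the mitochondrial set. FARSA was the highest in the complete inputs at 43.6 ± 12.1 (SD, n = 2), followed by SARS1 (serine) at 41.3 ± 1.44, a difference within their spread. SARS1 led in the glucose-free inputs at 86.3 ± 2.47. In the IPs the top places were held by AARS1 (alanine) at 29.8 ± 13.7 in complete medium and by FARSA at 21.2 ± 0.193 and SARS1 at 21.1 ± 0.895 without glucose. NARS2, for asparagine, was the lowest in the complete inputs at 0.787. SARS2, the mitochondrial serine gene, averaged under 1 RPKM over the 8 libraries and was not tested, so 36 of the 37 genes entered the tests. SARS2 had 0.817 and 1.09 scaled RPKM in the inputs and 0.120 and 0.0862 in the IPs of complete medium, 0.508 and 0.686 in the glucose-free inputs, and 0.281 in both glucose-free IPs. Its IP values lay below its input values in both media, but its lowest library had 11 reads, and 46.2% of its exon bases are shared with another gene on the same strand. Among tested members, VARS2 shares 22.0% of its exon bases with GTF2H4 on the same strand. The use of strand in counting is not given in the sources used here, so reads from genes that overlap on opposite strands cannot be told apart either. Such overlaps cover 437 bases between HARS1 and HARS2, 355 between MARS1 and DDIT3, 326 between CARS2 and ING1, and 176 between KARS1 and TERF2IP.

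**Figure D1:**
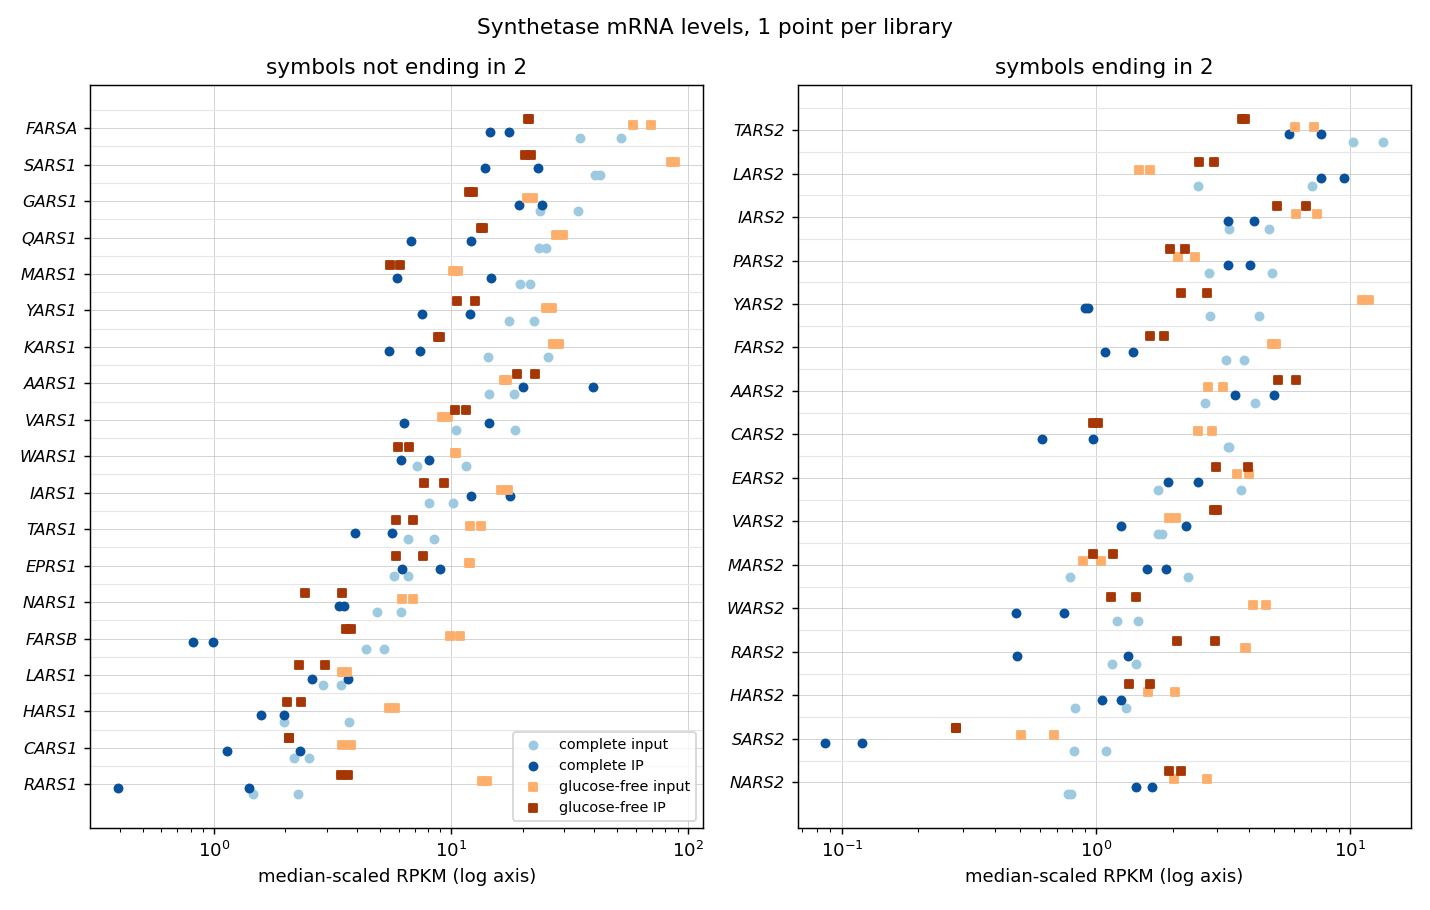
Level of 35 of the 37 synthetase mRNAs as median-scaled RPKM on a log axis, 1 point per library, with the cytosolic set on the left and the mitochondrial set on the right. RARS1 inputs sit at 1.45 and 2.27 in complete medium and at 13.5 and 14.1 without glucose, and the 2 complete IP points of FARSB, below 1, lie apart from its 6 other points.

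In complete medium, the comparison of IP with input asks which mRNAs were captured with eIF3d more or less than the median gene. More synthetase mRNAs lay below it than above: 12 of 36 tested were lower in the IP and 2 were higher, where 29.9% of all 10100 genes were lower and 30.0% were higher. The share of lower members is thus near that of all genes, and the share of higher members, 5.56%, is smaller. Across the synthetases the median log2 change was -0.36, against 0.03 over all genes. The split depends on the scaling, since RPKM as deposited gave 21 higher and 0 lower, quantile normalization 5 and 6, and centring after the log 4 and 9. With RPKM as deposited the median log2 change was 0.85 over the synthetases and 1.11 over all genes, so these higher calls follow the shift of all genes. FARSB, FARSA and KARS1 were the lowest of the cytosolic set, and CARS2, YARS2 and FARS2 were the lowest of the mitochondrial set.

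All 3 phenylalanine genes were lower in the complete IP. FARSB, the beta subunit of the cytosolic enzyme, had 4.35 and 5.22 scaled RPKM in the inputs and 0.818 and 0.992 in the IPs. FARSA, the alpha subunit, had 35.0 and 52.2 in the inputs and 17.6 and 14.6 in the IPs. FARS2, the mitochondrial enzyme, had 3.24 and 3.82 in the inputs and 1.39 and 1.09 in the IPs. In each of the 3 genes both IPs lay below both inputs. The log2 change of FARSB was -1.60 ± 0.20 (SE, 2 libraries a group, limma adjusted p = 0.000206), a 3.03-fold lower value of scaled RPKM + 1. That of FARSA was -1.36 ± 0.30 (limma adjusted p = 0.00449), and that of FARS2 was -1.02 ± 0.19 (limma adjusted p = 0.00163).

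The lysine gene KARS1, which serves both compartments, had 14.2 and 25.7 scaled RPKM in the complete inputs and 5.48 and 7.41 in the IPs, a log2 change of -1.45 ± 0.31 (limma adjusted p = 0.0037). The inputs lay further from each other than the lower input did from the higher IP, yet the groups did not overlap. GARS1, the glycine gene of the same double role, had 34.2 and 23.7 in the inputs and 24.2 and 19.3 in the IPs. Its groups overlapped, and its change of -0.38 ± 0.28 did not pass the test. EPRS1, whose protein also forms the GAIT complex that represses translation of inflammatory mRNAs, had 6.57 and 5.73 in the inputs and 6.21 and 8.98 in the IPs. These groups overlapped too, and the change of 0.25 ± 0.25 did not pass. The other cytosolic members that were lower were QARS1 (glutamine, -1.33 ± 0.30), SARS1 (-1.16 ± 0.31), MARS1 (methionine, -1.04 ± 0.36) and YARS1 (tyrosine, -0.98 ± 0.29). SARS1 turned to 0.32 under quantile normalization.

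Of the mitochondrial set, 5 were lower and 2 higher in the complete IP. CARS2, for cysteine, had 3.30 and 3.33 scaled RPKM in the inputs and 0.974 and 0.613 in the IPs, a change of -1.27 ± 0.18 (limma adjusted p = 0.000354). YARS2, for tyrosine, had 2.81 and 4.37 in the inputs and 0.930 and 0.906 in the IPs, a change of -1.24 ± 0.22 (limma adjusted p = 0.00155). In both genes the IPs lay below the inputs with no overlap. NARS2 was higher at 0.51 ± 0.17. As deposited, it had 0.390 and 0.570 RPKM in the complete inputs, with 39 and 35 reads, and 2.85 and 3.08 in the IPs. All its inputs were under 1 RPKM as deposited, so it entered the tests through the IPs, the side on which it was higher. Its call is thus not independent of the limit of 1 RPKM on average. TARS2 (threonine, -0.73 ± 0.24) and WARS2 (tryptophan, -0.53 ± 0.18) completed the lower genes. Several cytosolic members were above input without passing: AARS1 at 0.76 ± 0.34 (limma adjusted p = 0.0864) and IARS1, for isoleucine, at 0.64 ± 0.27 (limma adjusted p = 0.0688).

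The fit centred after the log did not make the calls of SARS1, YARS1, MARS1, TARS2 and NARS2 in complete medium, so that 8 of the 12 lower genes were called by both fits. Of all 10100 genes, the scaled fit called 3020 lower here and both fits called 2830. Of the 14 synthetase calls, 8 held in each of the 8 fits that left out 1 library: FARSB, KARS1, FARSA, QARS1, SARS1, CARS2, YARS2 and FARS2. NARS2 and MARS1 kept their call only without complete IP replicate 1, YARS1 lost it without replicate 2 of the complete input or IP, TARS2 lost it in 6 and WARS2 in 5 of these fits, and the count of higher genes was 0 without complete input replicate 1 and 4 without replicate 2.

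Without glucose, lower synthetase mRNAs again outnumbered higher ones. In the glucose-free IP, 18 of 36 were lower than input, where 32.2% of all genes were lower, and 1 was higher, where 27.6% of all genes were higher. The cytosolic set gave 13 of the 18 and none of its 20 members was higher by limma. An unadjusted limma p under 0.05 was found for 15 of them, all with a negative change, and for 6491 of all 10100 genes. The median log2 change over the synthetases was -0.71, against -0.02 over all genes. That gap depended on the scaling: after centring the medians were -0.28 and -0.34 with 2 higher and 9 lower calls, quantile normalization gave -0.14 and -0.01 with 2 and 8, and RPKM as deposited gave 33 higher and 0 lower. In that last setting the medians were 1.64 over the synthetases and 1.58 over all genes, so its calls follow the shift of all genes.

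SARS1 was the lowest in the glucose-free IP, with 88.0 and 84.6 scaled RPKM in the inputs and 21.8 and 20.5 in the IPs. This is a 3.95-fold lower value of scaled RPKM + 1, with a log2 change of -1.98 ± 0.31 (limma adjusted p = 0.000679). RARS1, the arginine gene, had 13.5 and 14.1 in the inputs and 3.69 and 3.42 in the IPs, a change of -1.70 ± 0.28 (limma adjusted p = 0.000837). FARSB had 9.90 and 10.9 in the inputs and 3.79 and 3.61 in the IPs, a change of -1.28 ± 0.20 (limma adjusted p = 0.000602). Replicates of these genes lay close together, and the gap between groups was many times the gap within them. FARSA was again lower at -1.54 ± 0.30, by the scaled fit and not by the centred one.

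KARS1 had 28.5 and 26.8 scaled RPKM in the glucose-free inputs and 8.76 and 9.01 in the IPs, a change of -1.53 ± 0.31 (limma adjusted p = 0.0026). GARS1 had 20.8 and 22.0 in the inputs and 12.4 and 11.9 in the IPs, a change of -0.77 ± 0.28 (limma adjusted p = 0.0411). EPRS1 had 12 and 11.9 in the inputs and 7.58 and 5.84 in the IPs, a change of -0.76 ± 0.25 (limma adjusted p = 0.0274). In each of these 3 genes both IPs lay below both inputs, but all 3 calls were made by the scaled fit and not by the centred one, and GARS1 turned to 0.35 under quantile normalization. The remaining cytosolic members that were lower ranged from -1.09 for YARS1 and -1.06 for HARS1 to -0.90 for TARS1, with QARS1, NARS1 and IARS1 between. FARSA, QARS1 and YARS1 turned to 0.30, 0.26 and 0.06 under quantile normalization.

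In the mitochondrial set, YARS2 was again lower, with 11.1 and 11.8 scaled RPKM in the glucose-free inputs and 2.72 and 2.15 in the IPs. Its change was -1.86 ± 0.22 (limma adjusted p = 0.00017), a 3.63-fold lower value of scaled RPKM + 1. WARS2 had 4.15 and 4.64 in the inputs and 1.43 and 1.14 in the IPs, a change of -1.24 ± 0.18 (limma adjusted p = 0.000382). FARS2 had 4.92 and 5.11 in the inputs and 1.63 and 1.85 in the IPs, a change of -1.14 ± 0.19 (limma adjusted p = 0.000823). In none of the 3 did the groups overlap. CARS2 (-0.89 ± 0.18) and TARS2 (-0.66 ± 0.24) were lower as well. AARS2, for alanine, was the 1 synthetase higher in the glucose-free IP, with 3.16 and 2.75 in the inputs and 6.13 and 5.20 in the IPs, a change of 0.75 ± 0.25 (limma adjusted p = 0.0278). Both IPs lay above both inputs, but its value was 0.21 and not called once length and GC trends were removed.

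The centred fit did not make the lower calls of KARS1, GARS1, EPRS1, FARSA, QARS1, YARS1, TARS1, IARS1 and TARS2 without glucose, which left 9 of the 18 called by both fits. Of all 10100 genes, the scaled fit called 3257 lower here and both fits called 2678. The larger share of lower synthetases in the scaled fit is thus not seen in the calls made by both fits. Of the 19 synthetase calls, 10 held when any 1 of the 8 libraries was left out: SARS1, RARS1, FARSA, KARS1, FARSB, HARS1, YARS2, WARS2, FARS2 and CARS2. The AARS2 call was lost without any 1 of the 4 glucose-free libraries (0.64 to 0.85), and the count of lower members was then 11 and 10 without glucose-free input replicates 1 and 2, and 13 and 10 without IP replicates 1 and 2, while it was 19 to 21 without any 1 complete library.

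**Figure D2:**
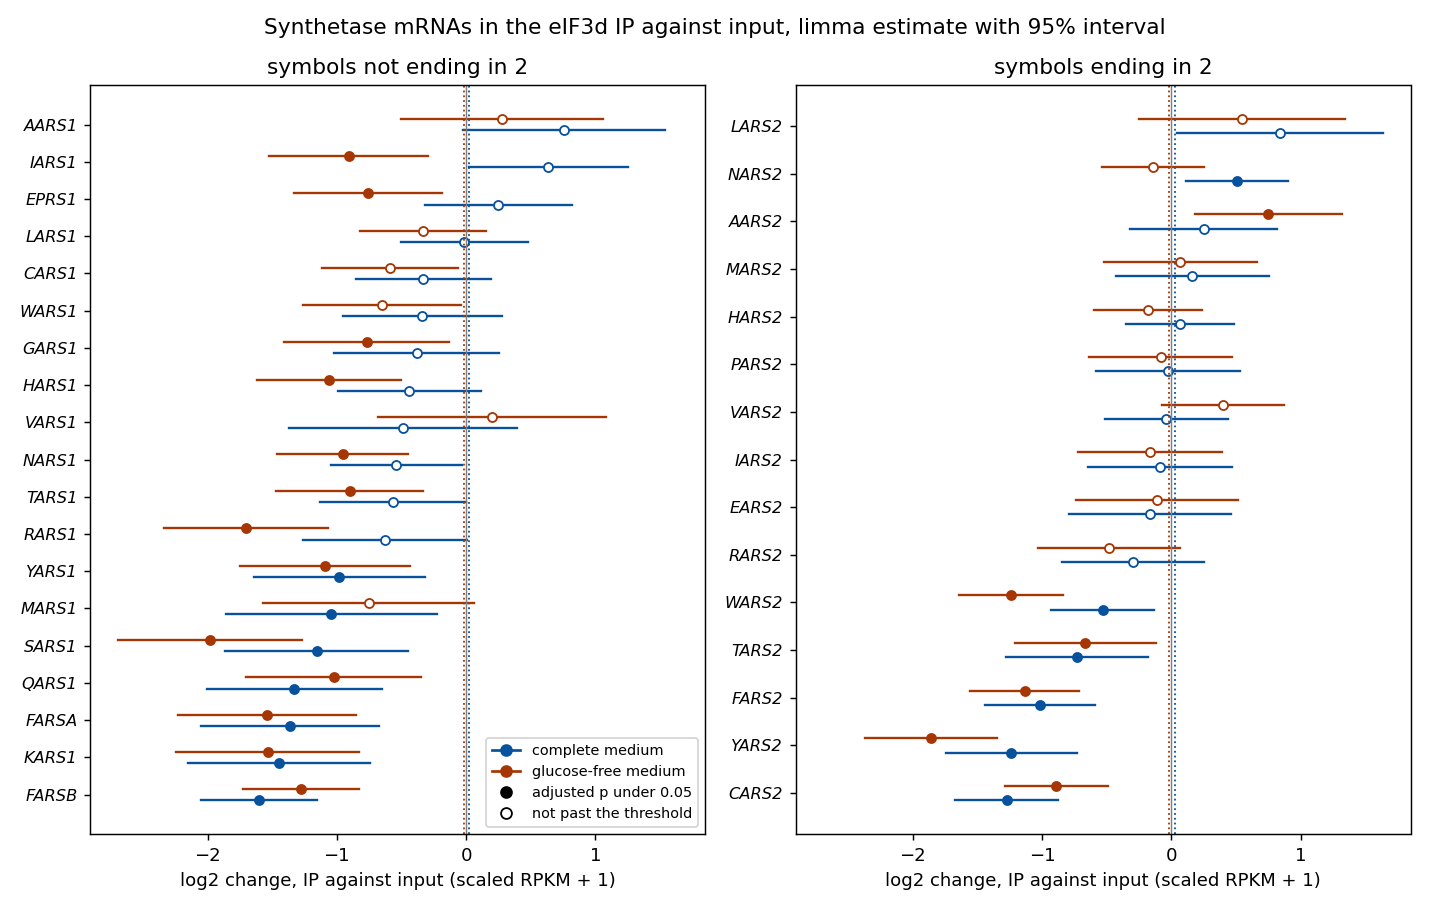
Log2 change of IP against input for 34 of the 36 tested synthetases, on the scaled RPKM + 1 scale, with limma's 95% interval, blue for complete and brown for glucose-free medium, and dotted lines at the median of all tested genes. Filled points passed an adjusted p under 0.05: 12 lie below and 1 above 0 in complete medium, and 18 below and 1 above without glucose, while over all 36 RPKM as deposited gave 21 and 33 higher calls and 0 lower. In that setting the medians over all tested genes were 1.11 and 1.58.

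Genes for the same amino acid did not always stand together in the IP. The mitochondrial gene of a pair had the higher IP to input ratio in 9 of 17 pairs in complete medium and in 14 of 17 without glucose, with a median difference in log2 change of 0.33 and 0.65. This grouping was made after the values had been seen, so it is a description with no test. The 17 pairs share genes, since FARS2 is set against both FARSA and FARSB, and EPRS1 against both EARS2 and PARS2. The widest gaps in complete medium were those of MARS2 over MARS1 (1.21) and NARS2 over NARS1 (1.05), and without glucose that of RARS2 over RARS1 (1.22). Tyrosine and tryptophan ran the other way without glucose, where YARS2 and WARS2 lay 0.77 and 0.59 below YARS1 and WARS1, and so did cysteine, with CARS2 0.30 below CARS1. HARS1 and HARS2, which start 85 bases apart in the stretch shown above, also parted: HARS1 was lower in the glucose-free IP at -1.06 ± 0.24 (limma adjusted p = 0.00518), while HARS2 at -0.18 ± 0.18 did not pass. The difference between the genes of a pair was not tested.

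**Figure D3:**
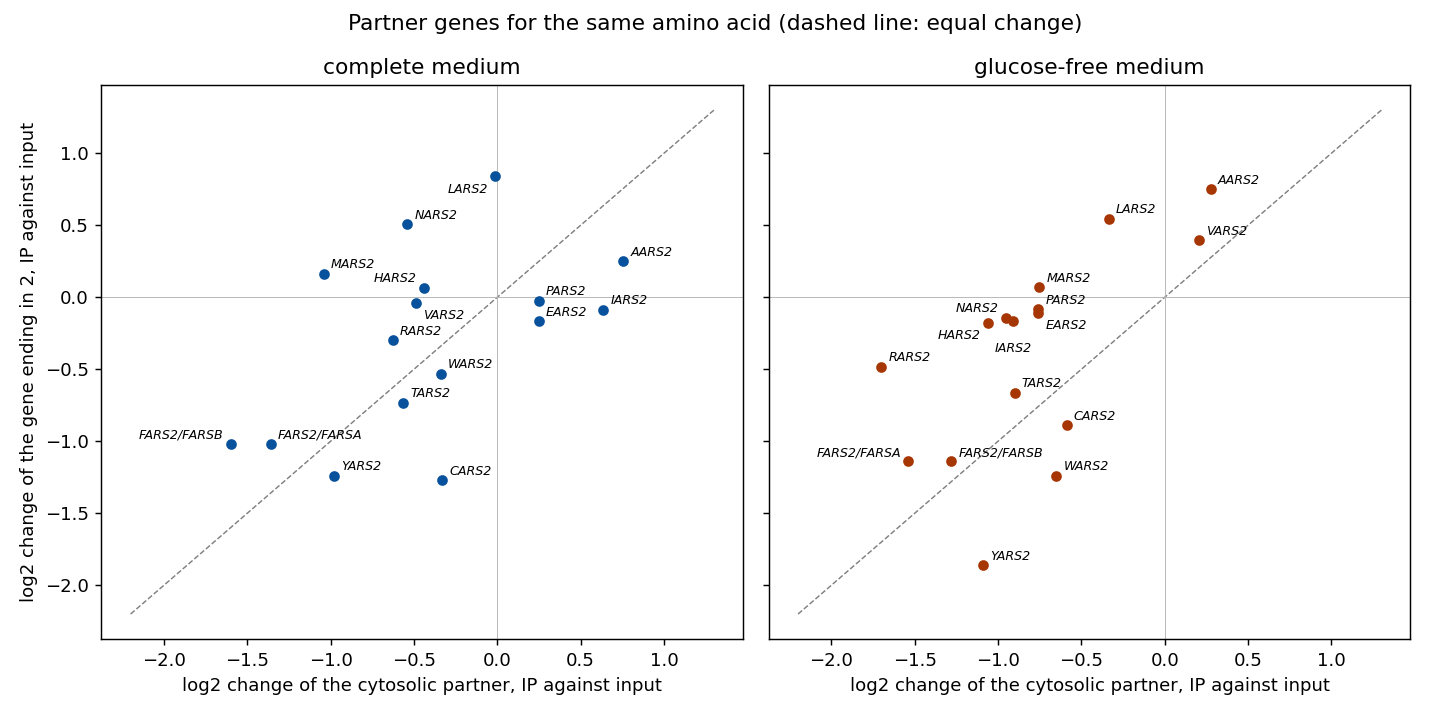
Log2 change of IP against input of each mitochondrial synthetase (vertical) and of the cytosolic gene for the same amino acid (horizontal), 1 point per pair, for 16 of the 17 pairs in each medium. Points above the dashed line have the higher ratio in the mitochondrial gene: 8 in complete medium and 13 without glucose.

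By structural class, and leaving out EPRS1, which holds a domain of each, 6 of 18 class I and 6 of 17 tested class II genes were lower in the complete IP, and 7 and 10 in the glucose-free IP, where 29.9% and 32.2% of all genes were lower in the 2 comparisons. Both fits called 4 and 4 of these in complete medium, and 4 and 5 without glucose. Of all 10100 genes, both fits called 2830 and 2678 lower in the 2 comparisons. The 8 synthetases of the multisynthetase complex (EPRS1, IARS1, KARS1 and RARS1 among them) gave 3 lower and 0 higher in complete medium, and 5 lower and 0 higher without glucose, of which both fits called 2 and 1. By limma, 4 and 5 of the 8 had an unadjusted p under 0.05 in these comparisons, where 6480 and 6491 of all 10100 genes did. LARS1 of the complex (-0.01 ± 0.21 and -0.34 ± 0.21) did not pass in either medium.

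Whether the IP to input ratio differed between media is answered by the interaction term, and no synthetase passed it. By limma 0 were higher and 0 lower, where 1.95% and 3.08% of all genes were. Of all 10100 genes, 2715 had an unadjusted limma p under 0.05, a larger share than among the synthetases. The 5 synthetases with such a p were IARS1, EPRS1, RARS1, WARS2 and NARS2. IARS1 came nearest, with 8.05 and 10.2 scaled RPKM in the inputs and 17.6 and 12.2 in the IPs of complete medium, 16.2 and 17.4 in the glucose-free inputs and 9.35 and 7.70 in the glucose-free IPs. In complete medium both IPs lay above both inputs, and without glucose both lay below. The difference was -1.54 ± 0.38 (95% interval -2.41 to -0.68, limma adjusted p = 0.0548), and it ranged from -1.78 to -1.28 when 1 library was left out. The difference was -1.01 ± 0.35 for EPRS1 (limma adjusted p = 0.121) and -1.07 ± 0.40 for RARS1 (limma adjusted p = 0.133). For KARS1, with much the same change in each medium, the difference was -0.09 with an interval of -1.09 to 0.91, so the missed threshold does not show that the media were alike. The count of lower members was 4 without complete IP replicate 1 (RARS1, WARS2, EPRS1 and IARS1), 2 without complete input replicate 2 and 1 without complete IP replicate 2. By the scaled fit, a simulated 2-fold difference was recovered in 0% of genes and a 4-fold one in 32.5%, so it missed most simulated differences of these sizes.

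Between the inputs, which show the level of each mRNA in the cells, more synthetases were higher without glucose than were lower. By the scaled fit 11 of 36 were higher, where 18.4% of all genes were, and 2 were lower, where 15.6% were. The higher genes included RARS1, SARS1, FARSB, EPRS1, IARS1 and HARS1 of the cytosolic set and YARS2, WARS2, RARS2 and NARS2 of the mitochondrial set. The 2 lower genes were LARS2 (leucine, -1.06 ± 0.35) and TARS2 (-0.74 ± 0.24). Neither was called by the centred fit, and of the 8 fits that left out 1 library LARS2 lost its call in 7, with -0.47 without complete input replicate 2, and TARS2 in 5. The synthetase median was 0.41, against -0.04 over all genes. This comparison crosses the 2 deposited tables, and the split turned with the scaling: RPKM as deposited gave 1 higher and 5 lower, quantile normalization 6 and 1, and centring 5 and 0. With RPKM as deposited the medians were -0.21 over the synthetases and -0.33 over all genes. In bulk RNA, fewer cells that express a gene and less of its RNA per cell cannot be told apart. The glucose-free inputs also serve as the base of the glucose-free IP comparison, so the members that were higher here and lower there share libraries.

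RARS1 had the widest difference. It had 1.45 and 2.27 scaled RPKM in the complete inputs and 13.5 and 14.1 in the glucose-free inputs. The log2 change was 2.39 ± 0.28 (limma adjusted p = 0.000568), a 5.22-fold higher value of scaled RPKM + 1. Its protein is a member of the multisynthetase complex. YARS2 had 2.81 and 4.37 in the complete inputs and 11.1 and 11.8 in the glucose-free ones, a change of 1.46 ± 0.22 (limma adjusted p = 0.0022). WARS2 had 1.21 and 1.46 in the complete inputs and 4.15 and 4.64 in the glucose-free ones, a change of 1.21 ± 0.18 (limma adjusted p = 0.00169). In all 3 genes every glucose-free input lay above every complete input.

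The centred fit called 5 of the 11 higher genes and not SARS1, FARSB, EPRS1, IARS1, HARS1 or RARS2. Of all 10100 genes, the scaled fit called 1860 higher between inputs and both fits called 882. The calls of RARS1, YARS2 and WARS2 held when any 1 of the 8 libraries was left out, and each value was positive under every scaling run, although RPKM as deposited kept the call of RARS1 alone (1.46). The count of higher members was 5 without glucose-free input replicate 1, 4 without replicate 2 and 7 without either glucose-free IP, and NARS2 (0.91 ± 0.17), also called by the centred fit, was lost without glucose-free input replicate 2 (0.81).

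KARS1 (0.51 ± 0.31) and GARS1 (-0.40 ± 0.28) did not pass between inputs, and EPRS1 was higher at 0.86 ± 0.25 (limma adjusted p = 0.0292) by the scaled fit. Of the genes with a match to the amino acid response element, YARS2 and IARS1 (0.82 ± 0.27) were higher without glucose and AARS1 (0.05 ± 0.34) did not pass. Of the 7 with an ETS-type match, HARS1 (0.82 ± 0.24) was higher, and the rest did not pass. Between partner genes, the mitochondrial one had the higher input change in 5 of 17 pairs, with a median difference of -0.36.

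**Figure D4:**
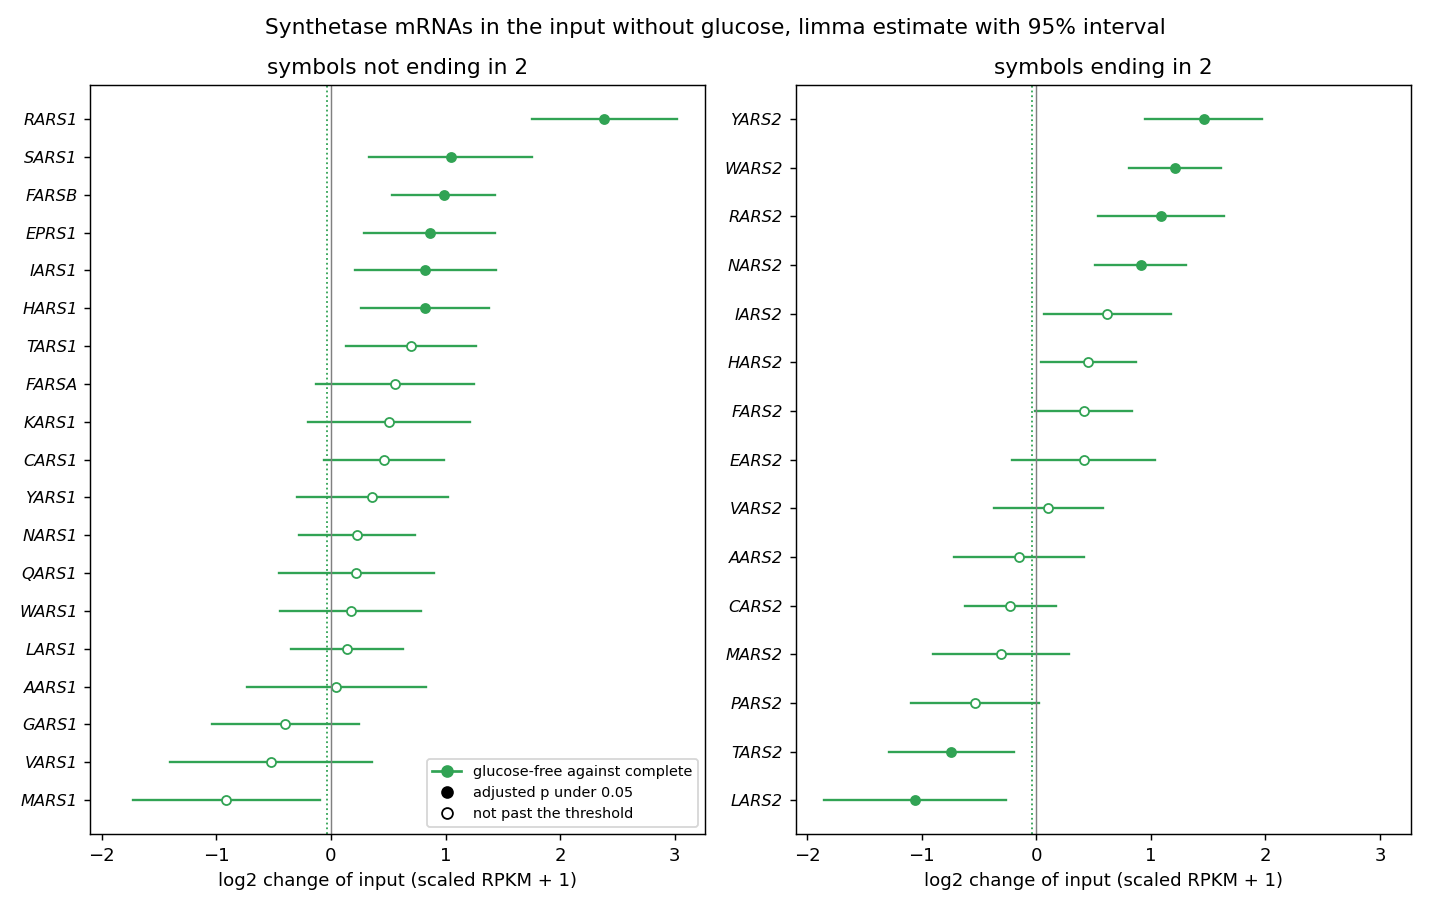
Log2 change of input in glucose-free against complete medium for 34 of the 36 tested synthetases, on the scaled RPKM + 1 scale, with limma's 95% interval and a dotted line at the median of all tested genes. Filled points passed an adjusted p under 0.05: 10 lie above 0, led by RARS1 at 2.39, and LARS2 and TARS2 lie below, while over all 36 RPKM as deposited gave 1 higher and 5 lower. In that setting the median over all tested genes was -0.33.

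Exon length and GC content moved with these values. Over the 36 tested synthetases the Pearson correlation across genes of the log2 change with log exon length was 0.17 in the complete IP, 0.24 in the glucose-free IP and -0.34 between inputs, against 0.47, 0.53 and -0.41 over all 10100 genes. With GC content it was -0.21, 0.21 and -0.52 for the synthetases, and 0.61 for the ratio difference. Over all genes these were -0.07, 0.15, -0.24 and 0.38. These are descriptions across genes that share libraries. The synthetases were close to other genes in both features, with a median exon length of 4398 bases and a median GC content of 49.9%, against 4101.5 bases and 51.2% over all tested genes. With both trends removed from each library, 22 synthetases were lower and 1 higher in the complete IP, 25 and 0 in the glucose-free IP, and 19 were higher and 2 lower between inputs. Of all 10100 genes in that fit, 3632 were lower and 2368 higher in the complete IP, and 3908 and 2067 in the glucose-free IP. Between inputs 2288 of them were higher and 1318 lower. The part of length and GC content in the single calls was not tested.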

How the data were processed

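RNA levels were deposited as RPKM per gene and library, in 1 table for each medium, with the reads handled by cutadapt, HISAT2 and SAMtools on the build GRCh38, per the submitters' processing notes. The sources used here do not give versions, read counter, annotation or strand. Tables were joined by Ensembl identifier. Depth was recovered from low values with GENCODE 29 exon lengths, which gave whole reads within 0.02 for 97.5% to 98.0% of values of up to 50 reads. Arithmetic on the deposited RPKM came next: each library was scaled so that its median over genes averaging 1 RPKM or more equalled the geometric mean of the 8 medians (factors 0.377 to 2.94), and log2(scaled RPKM + 1) was fitted with limma 3.58.1 in R 4.3.3, with 4 groups in 1 model and an intensity trend. Changes on this scale understate those of low genes. A gene was called where its p, adjusted by Benjamini-Hochberg over all 10100 genes, was under 0.05. For a single gene, the smallest two-sided exact permutation p with 2 libraries against 2 is 0.333, so calls rest on the model's shared spread.

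The scaled fit was preferred to centring after the log because, on simulated reads with 200 of 10100 genes changed, centring called 8.42% to 11.6% of unchanged genes in the complete IP against input and 22.0% to 22.7% in the glucose-free one, and the scaled fit called at most 0.596%. It recovered 80.0% and 83.5% of 4-fold changes in these comparisons, 32.5% in the ratio difference and 81.0% between inputs. Simulated 2-fold changes were recovered in 4.00%, 0%, 0% and 0% of cases. In the ratio difference, centring called at most 0.192% of unchanged genes and recovered 76.0% of 4-fold changes. Between inputs it called at most 0.101% and recovered 50.5%. The simulation shifted all genes of a group by 1 common factor, as the scaled fit assumes, so it favours that fit. It also changed far fewer genes than were called in the IP comparisons, where 30.0% were higher and 29.9% lower in complete medium. Its rates of recovery and of false calls thus need not hold for those comparisons. Members with changes under 2-fold were called there, such as NARS2 at 1.42-fold on the scaled RPKM + 1 scale. The members, the lists and the tests were chosen with earlier results of these data known. Values per library are given for the members with the largest changes called by both fits, and for EPRS1, KARS1 and GARS1. Other genes singled out, the partner pairs, the structural classes and the promoter motifs were chosen after values were seen. Replicate numbers were not taken as pairs. Counts and medians cover all members, of which 2 are not reported here by name and are not drawn in the figures.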

Additional observations from a re-analysis of the deposited data

Results flagged for a closer look

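EEF1E1 encodes a scaffold protein of the multisynthetase complex. Its IP to input ratio, on the log2(scaled RPKM + 1) scale, differed between media by -0.96 ± 0.22 (limma adjusted p = 0.0431), which is why it is listed here. It had 0.507 and 0.238 scaled RPKM in the inputs and 0.0775 and 0.0361 in the IPs of complete medium, 4.31 and 4.60 in the glucose-free inputs, and 1.20 and 1.13 in the glucose-free IPs. The complete libraries thus held little of it, from 3 to 17 reads each, and its ratio was below 1 in both media. As deposited, it averaged 1.19 RPKM over the libraries and met the limit of 1 only through the glucose-free ones. Taken from the scaled values without the added 1, the ratio was higher without glucose, the reverse of the sign above. With 0.1 added in place of 1, the log2 change was -1.545 in complete medium and -1.849 without glucose. The sign of the difference thus depends on the value added. The difference was 0.006 after centring and 0.72 with RPKM as deposited, and the call was lost without any 1 of the 4 glucose-free libraries (limma adjusted p up to 0.196).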

How the results depend on the processing

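Counts of synthetases called higher and lower are given in the order complete IP, glucose-free IP, ratio difference and input, where the scaled fit gave 2 and 12, 1 and 18, 0 and 0, and 11 and 2. Centring after the log gave 4 and 9, 2 and 9, 0 and 0, and 5 and 0. RPKM as deposited gave 21 and 0, 33 and 0, 5 and 0, and 1 and 5, where the median over all genes was itself 1.11, 1.58, 0.68 and -0.33. Quantile normalization gave 5 and 6, 2 and 8, 0 and 0, and 6 and 1. Scaling on coding genes gave 1 higher in the complete IP, 1 lower in the ratio difference and 0 lower in the input. A pseudocount of 5 gave 1 higher in the complete IP, 3 lower in the ratio difference and 1 lower in the input, and none of the counts moved by over 1.5 times with 0.1. With no filter 0 and 0 were higher in the IPs, and 6 were higher and 0 lower in the input. With a mean RPKM of at least 5, which left fewer members, the counts were 4 and 3, 3 and 3, 0 and 0, and 0 and 4. Fitting only the libraries compared gave 0 and 7 in the complete IP, 3 higher in the glucose-free IP and 1 lower in the input. Removing length and GC trends gave 1 and 22, 0 and 25, 0 and 0, and 19 and 2. Leaving out 1 library at a time gave 0 to 4 higher and 9 to 15 lower in the complete IP, 0 to 2 and 10 to 21 in the glucose-free IP, 0 and 0 to 4 in the ratio difference, and 4 to 14 and 0 to 4 in the input. The cause of these moves was not tested.

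Replicate 1 minus replicate 2 correlated across genes with r from -0.096 to 0.135 between groups. Such low values cannot show whether libraries of the same number came from the same culture, and the labels do not say so. With the number as a replicate block the counts were 3 and 12, 1 and 17, 0 and 0, and 10 and 1.

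Some genes changed sign, and for most the setting was RPKM as deposited, in which the IPs lie above the inputs at the median gene. There, complete IP against input was 0.467 for SARS1, 0.081 for KARS1, 0.260 for WARS2, 0.587 for YARS1, 0.779 for TARS2, 0.110 for FARS2, 0.521 for MARS1, 0.246 for QARS1, 0.257 for FARSA, 0.123 for GATB and 0.027 for QRSL1. Glucose-free IP against input was 0.758 for SARS1, 1.094 for KARS1, 1.859 for GARS1, 1.603 for TARS1, 0.735 for RARS1, 1.117 for FARSB, 0.703 for WARS2, 1.296 for NARS1, 1.551 for YARS1, 0.826 for CARS2, 1.739 for EPRS1, 0.469 for YARS2, 1.640 for TARS2, 0.935 for FARS2, 1.094 for HARS1, 1.635 for QARS1, 1.189 for FARSA and 1.663 for IARS1. For other genes it was 0.591 for EEF1E1, 1.283 for AIMP1, 0.287 for GATB, 0.871 for MTFMT, 1.088 for QRSL1 and 0.946 for TSFM, and the ratio difference of EEF1E1 was 0.718. Quantile normalization turned SARS1 in complete medium to 0.316, and GARS1, YARS1, QARS1 and FARSA without glucose to 0.346, 0.061, 0.255 and 0.296. Centring turned the ratio difference of EEF1E1 to 0.006, and removing trends turned XPOT in complete medium to -0.116. Depth limits SARS2 and EEF1E1 most, with as few as 11 and 3 reads in a library.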

Other observations

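Genes that work beside the synthetases were read in the same fits, as lists chosen with earlier results known and with no test of the list. For the 10100 genes together, the shares called higher and lower were 30.0% and 29.9% for the complete IP, 27.6% and 32.2% for the glucose-free IP, and 18.4% and 15.6% between inputs. Both fits called 2830 of them lower in the complete IP and 2678 in the glucose-free IP. Of the scaffold genes of the multisynthetase complex, AIMP2 was lower in the complete IP (-1.70 ± 0.28) and all 3 were lower in the glucose-free IP, with AIMP2 at -2.79 ± 0.28, EEF1E1 at -1.33 ± 0.15 and AIMP1, not called by the centred fit, at -1.0 ± 0.26. AIMP2 had 21.4 and 22.0 scaled RPKM in the glucose-free inputs and 1.95 and 2.64 in the IPs, so the groups lay far apart. With RPKM as deposited EEF1E1 and AIMP1 turned positive there. Between inputs EEF1E1 (2.0 ± 0.15) and AIMP1 (1.61 ± 0.26) were higher without glucose, and AIMP2 (0.12 ± 0.28) did not pass. EEF1E1 had 17 and 7 reads in the complete inputs. It met the limit of 1 RPKM on average only through the glucose-free libraries, where it was high, so its input call is not independent of that limit. All 4 genes for mitochondrial glutamine transamidation and initiator formylation were lower in the complete IP and 3 of 4 in the glucose-free IP, with MTFMT, the formylase of the initiator tRNA, at -0.86 ± 0.16 and -0.68 ± 0.16. Of 8 tested elongation factors 5 were lower in each IP, and 4 and 3 by both fits, led by EEF1B2, the exchange factor of eEF1A, at -3.33 ± 0.49 and -3.75 ± 0.49, and TSFM, its mitochondrial counterpart for EF-Tu, was lower at -1.25 ± 0.19 and -1.35 ± 0.19.

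XPOT, which exports tRNA from the nucleus, was higher in the complete IP at 0.58 ± 0.20 (limma adjusted p = 0.0326) but at -0.12 once length and GC trends were removed, and the call was lost in 6 of the 8 fits that left out 1 library (limma adjusted p up to 0.113). It was higher in the glucose-free input at 0.99 ± 0.20. Of 16 tested amino acid response genes, the complete IP had 2 higher and 3 lower, the glucose-free IP 3 and 2, and the input 2 and 1, each a smaller share than that over all genes. SLC7A5, a transporter of large neutral amino acids, had 8.12 and 6.96 scaled RPKM in the glucose-free inputs and 64.9 and 70.0 in the IPs, a change of 3.0 ± 0.46 (limma adjusted p = 0.000602), the opposite side of the median from most synthetases. Its complete inputs had 34.8 and 25.7, and it was the gene of this list called lower between inputs, at -1.86. STC2, a secreted glycoprotein, was higher in both IPs at 1.38 ± 0.34 and 1.69 ± 0.34. Of 3 tested genes for editing of misacylated tRNA and related functions, 2 were lower in the complete and 3 in the glucose-free IP, and 1 was higher in the glucose-free input.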
